A study of Mus musculus with 71 samples.

Results

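The 10 genes described here are Ttr, Kl, Folr1, Prlr, Clic6, Sostdc1, Aqp1, Enpp2, Slc4a5 and F5, which are known as genes of the choroid plexus epithelium. They were chosen by name, with the cocaine against saline values of these same libraries already known, so every cocaine against saline value below is a description and carries no test. They are 10 of the 37681 genes in each of 6 tables, and all 10 were found in every table. The 71 libraries were made from micro-punched nucleus accumbens (NAc), ventral tegmental area (VTA) and prefrontal cortex (PFC) of adult wild type C57BL/6 mice. The mice had intravenously self-administered cocaine or saline and were then kept abstinent for 1 day or 28 days. All groups therefore share the strain, the genotype and a history of self-administration, and the saline mice differ in what they infused. Each of the 12 groups had 6 libraries, other than saline VTA at 28 days, which had 5. The sources used here do not say whether the 3 regions came from the same mice or whether a library pooled animals.

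The choroid plexus is a sheet of secretory epithelium inside the brain ventricles, and it makes cerebrospinal fluid. Its cells are known for a very high level of transthyretin, the thyroxine carrier encoded by Ttr, and for a set of transporters and receptors that face blood or fluid. Kl encodes klotho, the co-receptor for FGF23. Folr1 encodes a folate receptor and Prlr the prolactin receptor, which signals through JAK2 and STAT5. Slc4a5 encodes a sodium bicarbonate cotransporter, Aqp1 a water channel and Clic6 a chloride intracellular channel protein. Sostdc1 encodes a secreted antagonist of BMP and Wnt signals, F5 is coagulation factor V, and Enpp2 encodes autotaxin, which makes lysophosphatidic acid and is also strongly expressed by oligodendrocytes. In the GENCODE annotation of mm9, 9 of the genes span these positions, with Kl at chr5:151755182-151796384, Folr1 at chr7:109006845-109019302, Prlr at chr15:10106993-10303504, Enpp2 at chr15:54670453-54751701, Clic6 at chr16:92485981-92541488, Sostdc1 at chr12:37040756-37045039, Aqp1 at chr6:55286426-55298549, Slc4a5 at chr6:83169822-83254939 and F5 at chr1:166081969-166150408. All are protein-coding, and levels are over their exons. None of the 3 punched regions contains choroid plexus, and the VTA lies close to the ventral surface of the brain, where the meninges are.

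Promoter sequence is shown for 4 of the genes, because Kl, F5 and Slc4a5 moved together across VTA libraries at 28 days and Prlr did not move with them. Each line runs from 250 bases before to 50 bases after a RefSeq transcription start, on the plus strand of GRCm38.p6, which is a later build than the mm9 build of the tables. Capitals mark TAATC, the core of the site bound by OTX-type homeodomain factors, and CCAAT, each searched on both strands.
Kl, chr5:150952357-150952656: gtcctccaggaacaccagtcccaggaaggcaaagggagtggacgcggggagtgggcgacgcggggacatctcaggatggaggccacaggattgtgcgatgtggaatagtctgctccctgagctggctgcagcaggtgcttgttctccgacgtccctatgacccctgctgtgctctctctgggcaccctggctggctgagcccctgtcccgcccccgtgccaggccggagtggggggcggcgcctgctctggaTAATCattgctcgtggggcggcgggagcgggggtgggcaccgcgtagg
F5, chr1:164151585-164151884: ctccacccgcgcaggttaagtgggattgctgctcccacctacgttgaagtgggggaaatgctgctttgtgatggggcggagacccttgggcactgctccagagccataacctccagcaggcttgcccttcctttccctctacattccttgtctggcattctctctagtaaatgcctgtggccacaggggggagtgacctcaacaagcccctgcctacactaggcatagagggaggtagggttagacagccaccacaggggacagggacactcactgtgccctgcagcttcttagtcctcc
Slc4a5, chr6:83237125-83237424: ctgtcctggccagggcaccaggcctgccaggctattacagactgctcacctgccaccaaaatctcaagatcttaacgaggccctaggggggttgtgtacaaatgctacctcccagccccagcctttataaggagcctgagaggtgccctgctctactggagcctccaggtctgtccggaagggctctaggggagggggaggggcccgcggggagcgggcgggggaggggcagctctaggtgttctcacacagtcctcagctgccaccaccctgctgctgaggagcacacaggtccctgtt
Prlr, first start, chr15:10176988-10177287: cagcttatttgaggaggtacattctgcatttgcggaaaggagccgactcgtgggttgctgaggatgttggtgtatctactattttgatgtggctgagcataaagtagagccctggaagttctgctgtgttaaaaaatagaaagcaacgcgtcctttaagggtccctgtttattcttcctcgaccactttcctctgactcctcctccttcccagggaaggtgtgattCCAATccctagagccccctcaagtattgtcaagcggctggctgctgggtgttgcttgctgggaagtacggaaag
The Kl window held 1 TAATC and the Prlr window 1 CCAAT, while the F5 and Slc4a5 windows held neither. Over all 32851 promoters of this length in the table, TAATC occurred in 22% and CCAAT in 37.4%, so neither match sets these genes apart. RefSeq windows were found for 5 of the 10 genes. Those not printed belong to Aqp1, at chr6:55336049-55336348, and to the other starts of Prlr, and they held neither motif. Folr1, Clic6, Sostdc1, Enpp2 and Ttr were not matched.

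Depth ranged from 20971967 to 49700932 reads per library. Levels are given in RPKM, which scale reads by gene length and library size, so that genes can be compared per length. The regional markers followed the labels: the summed level of 8 striatal neuron genes was 1595 to 3707 RPKM in NAc libraries, that of 8 midbrain dopamine neuron genes was 430.0 to 2097 RPKM in VTA libraries against at most 24.1 RPKM elsewhere, and that of 6 cortical excitatory neuron genes was 476 to 782 RPKM in PFC libraries. Outside the PFC the cortical sum varied widely between libraries. In the NAc it ran from 7.75 to 291 RPKM at 1 day and from 11.0 to 209 RPKM at 28 days. In the VTA it reached 78.4 RPKM at 1 day and 85.9 RPKM at 28 days. Some libraries stood apart. Saline PFC replicate 4 at 28 days had a striatal sum of 1316 RPKM, against a median of 108 RPKM in its group. Saline VTA replicate 1 at 28 days had a sum of 755 RPKM over 6 hypothalamic peptide genes, against a group median of 8.28 RPKM. Cocaine VTA replicate 6 at 1 day and saline VTA replicate 4 at 28 days had the highest sums of 12 meningeal and perivascular fibroblast genes, at 509 and 334 RPKM. Where leaving out 1 of these libraries turned the sign of a cocaine against saline value or changed a region call, both values are given. Ddx3y, on the Y chromosome, was at 6.75 RPKM or more and Xist at no more than 0.0425 RPKM in every library.

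The levels of the 10 genes did not look like those of choroid plexus tissue in most libraries. Ttr, the gene that marks this epithelium, ranged from 0.0347 to 140 RPKM with a median of 1.00 RPKM over the 71 libraries. Enpp2 ranged from 32.9 to 240 RPKM and was above Ttr per length in 71 of 71 libraries. The remaining genes were low: the highest library reached 9.73 RPKM for Clic6, 4.88 RPKM for Kl, 2.17 RPKM for Sostdc1, 2.06 RPKM for Prlr, 1.73 RPKM for F5, 1.56 RPKM for Folr1, 1.47 RPKM for Aqp1 and 0.979 RPKM for Slc4a5. Folr1 had under 10 reads in 53 libraries and none in 6, and Slc4a5 had under 10 reads in 48 and none in 5. Aqp1 had under 10 reads in 31 libraries and Sostdc1 in 15. The values of these 4 genes are therefore limited by counting error.

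A list of 26 further choroid plexus genes gave the same picture. Between 3 and 11 of the 26 had a group median under 0.1 RPKM in each of the 12 groups, and Slc16a8, a lactate transporter, and Krt8, a keratin, had medians no higher than 0.0210 and 0.0434 RPKM in any group. The 3 genes of that list with the highest level in saline NAc at 28 days were Car12, a carbonic anhydrase, at 21.8 ± 2.50 RPKM (SD, n = 6), Cab39l at 8.38 ± 0.531 RPKM and Col9a3, a collagen chain, at 5.77 ± 0.451 RPKM, each above the mean of Ttr there, 3.20 ± 2.99 RPKM.

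1 library carried part of the pattern. Cocaine VTA replicate 6 at 1 day had Ttr at 140 RPKM, from 4265 reads, against 0.518 to 58.0 RPKM in the other 11 VTA libraries of that day. Of the 26 further genes, 18 were higher in it than in any of those 11. They included Kcnj13, a potassium channel, at 29.3 RPKM against at most 7.58, Wfdc2 at 4.48 RPKM against at most 0.484, and Calml4 at 2.33 RPKM against at most 0.476. Otx2, at 1.48 RPKM against at least 2.31, and Slc29a4, at 4.78 RPKM against at least 6.19, were lower in it than in all 11. Otx2 and Lmx1a, also of that list, had medians of 3.76 and 2.72 RPKM in those 11 libraries. Their medians were under 0.1 RPKM in every PFC group. Their VTA levels may thus have a source other than choroid plexus, which was not tested. Cocaine VTA replicate 6 also had the highest meningeal and perivascular fibroblast sum of that day, at 509 RPKM. Of the 10 genes, 5 were above all 11 others in it, namely Ttr, Kl, Folr1, Aqp1 and F5. Prlr, Clic6, Sostdc1, Enpp2 and Slc4a5 were not among them, with Prlr at 1.31 RPKM within a range of 0.896 to 1.96 RPKM. In saline VTA replicate 6 of the same day Ttr was 58.0 RPKM, but Kl, at 1.05 RPKM, was below the 1.21 RPKM of saline replicate 3.

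The region contrasts ask where the 10 genes are expressed, and they used saline mice at 28 days only, a comparison the choice of the genes did not rest on. Region and table cannot be told apart, since each region is a table of its own. edgeR's quasi-likelihood test over 17181 genes called 5 of the 10 between VTA and NAc, where 62.5% of all genes were called, 3 between PFC and NAc, against 40.7%, and 7 between VTA and PFC, against 57.8%. Their median log2 difference was 1.03 for VTA minus NAc, -0.77 for PFC minus NAc and 1.35 for VTA minus PFC, while the medians of all genes were 0.03, -0.02 and 0.02.

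**Figure D1:**
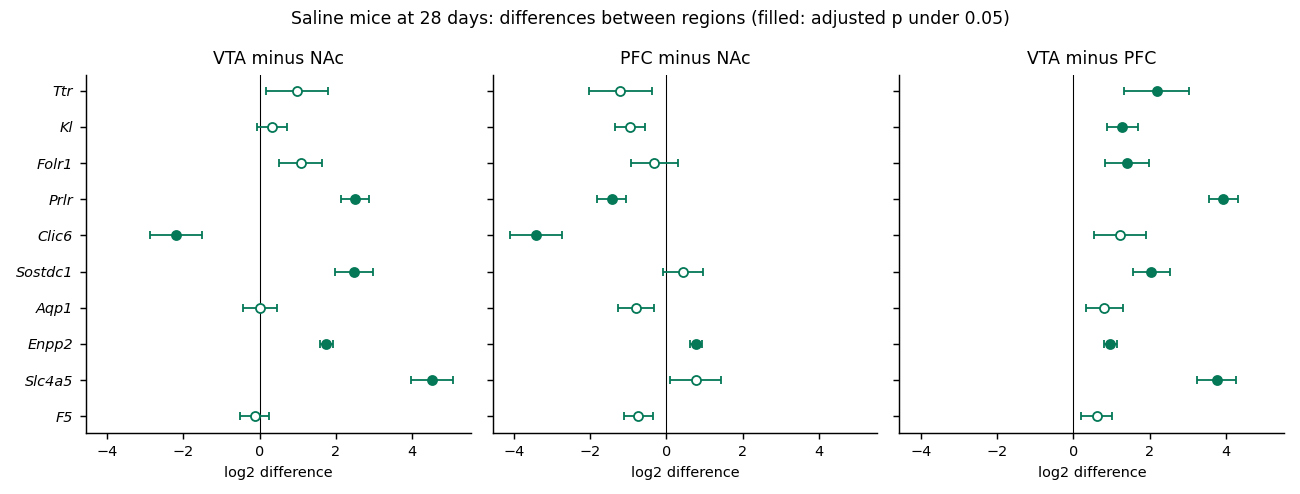
Differences between regions in saline mice at 28 days, as log2 difference (horizontal axis) with its standard error for each of the 10 genes (vertical axis), 1 panel per contrast, from 6 NAc, 5 VTA and 6 PFC libraries. Filled points passed an adjusted p of 0.05 in edgeR: Prlr, Sostdc1, Enpp2 and Slc4a5 lie to the right in both VTA panels, and Clic6 lies to the left in both NAc panels.

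Prlr, the prolactin receptor gene, was a VTA gene. Its saline 28 day levels were 0.948, 1.30, 1.18, 0.790 and 0.898 RPKM in the VTA, 0.0642 to 0.362 RPKM with a median of 0.143 in the NAc, and 0.0421 to 0.0911 RPKM with a median of 0.0580 in the PFC. All VTA libraries lay above all others. The log2 difference from NAc was 2.51 (SE 0.36, edgeR adjusted p = 8.89e-06) and from PFC 3.94 (SE 0.39, adjusted p = 1.26e-07). NAc exceeded PFC by a smaller margin, with a PFC minus NAc log2 difference of -1.44 (SE 0.38, adjusted p = 0.00547), and those groups overlapped.

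Slc4a5, the bicarbonate cotransporter gene, was also higher in the VTA, with few reads elsewhere. Its VTA levels were 0.0786, 0.342, 0.592, 0.744 and 0.427 RPKM, from 13 to 159 reads, while NAc libraries had 0 to 6 reads and PFC libraries 2 to 8. The log2 difference was 4.53 (SE 0.55, adjusted p = 1.25e-06) from NAc and 3.76 (SE 0.51, adjusted p = 5.36e-06) from PFC. Sostdc1, the BMP antagonist gene, was at 0.728, 1.40, 2.17, 0.618 and 1.49 RPKM in the VTA, above every NAc library, which reached 0.388 RPKM, and every PFC library, which reached 0.515 RPKM. Its log2 differences were 2.47 (SE 0.50, adjusted p = 3.26e-04) and 2.04 (SE 0.49, adjusted p = 0.00155).

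Enpp2, the autotaxin gene, was the most abundant of the 10 in each region. It was at 102, 162, 159, 114 and 190 RPKM in the VTA, 44.2 to 86.5 RPKM with a median of 69.9 in the PFC and 32.9 to 45.4 RPKM with a median of 39.9 in the NAc. The VTA did not overlap either region, and the log2 differences were 1.75 from NAc (SE 0.18, adjusted p = 1.25e-07) and 0.97 from PFC (SE 0.17, adjusted p = 1.07e-04). PFC exceeded NAc by 0.78 (SE 0.17, adjusted p = 0.00108). The summed level of 10 oligodendrocyte genes moved in the same direction between VTA and the other regions, with saline 28 day medians of 5719 RPKM in the VTA, 1666 in the PFC and 1715 in the NAc. Its part in the Enpp2 difference was not tested.

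Clic6, the chloride channel gene, ran the other way and was an NAc gene. It was at 4.96 to 8.20 RPKM with a median of 7.26 in the NAc, and at 3.31, 1.41, 1.43, 1.24 and 0.701 RPKM in the VTA, which gave a log2 difference of -2.19 (SE 0.69, adjusted p = 0.0102). In the PFC its median was 0.177 RPKM, and the PFC minus NAc log2 difference was -3.42 (SE 0.69, adjusted p = 6.13e-04). That estimate rests on saline PFC replicate 4, the library with high striatal genes, where Clic6 was 2.89 RPKM against 0.103 to 0.232 RPKM in the other 5. Without it the PFC minus NAc difference was -5.36 and the VTA minus PFC difference went from 1.23 (SE 0.69, adjusted p = 0.135) to 3.15 (SE 0.37, adjusted p = 1.47e-06).

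Ttr, Kl and Folr1 were higher in VTA than in PFC, and all 3 calls were lost without saline VTA replicate 4. The log2 differences were 2.19 for Ttr (SE 0.85, adjusted p = 0.0352), 1.29 for Kl (SE 0.41, adjusted p = 0.0124) and 1.41 for Folr1 (SE 0.58, adjusted p = 0.0460). Without saline VTA replicate 4, which had the highest meningeal sum and the highest Ttr, Kl and Folr1 of its group, they were 1.43, 0.61 and 1.18, and edgeR adjusted p was 0.158, 0.104 and 0.118. Without saline PFC replicate 4 the Folr1 call was also lost (log2 difference 1.40, adjusted p = 0.0661), while the Ttr difference was 2.95 (edgeR adjusted p = 0.00898). None of the 3 was called between VTA and NAc. Aqp1 and F5 were not called in any of the 3 contrasts, where their log2 differences lay between -0.80 and 0.82. Without saline VTA replicate 4, F5 was called lower in VTA than in NAc, at -0.85 (SE 0.28, adjusted p = 0.0140), F5 and Kl were called lower in PFC than in NAc, at -0.75 and -0.97, and the number called between PFC and NAc went from 3 to 5. Kl was also called lower in PFC than in NAc without saline VTA replicate 1, at -0.96.

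In the cocaine mice, where Folr1 was too low to be tested, the same contrasts gave 7, 5 and 7 called genes of 9, where 68.5%, 53.4% and 64.9% of all genes were called. Prlr, Enpp2, Clic6, Sostdc1 and Slc4a5 had the same direction there in each contrast in which they were called in saline mice. Kl turned from 0.33 in saline mice (SE 0.41, adjusted p = 0.499) to -0.77 in cocaine mice (SE 0.30, adjusted p = 0.0305) for VTA minus NAc. Without saline VTA replicate 4 the value in saline mice was -0.36 (SE 0.31, edgeR adjusted p = 0.329), the same direction as in cocaine mice.

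Cocaine was then compared with saline in each region and at each time. By edgeR, or limma for the VTA and PFC tables at 1 day, none of the 10 genes was called at an adjusted p of 0.05 in any of the 6 tables. Over all genes the share called was 0.0126% in the NAc at 1 day, 0% at 28 days, 0.0665% in the VTA at 1 day, 0% at 28 days, 0.00693% in the PFC at 1 day and 0% at 28 days. The tables at 28 days, where no gene was called, had 1102 genes in the NAc, 1942 in the VTA and 925 in the PFC at an unadjusted p under 0.05, and DESeq2 called 20, 83 and 2 genes there. In the other tables DESeq2 called 21 genes in the NAc and, on recovered reads, 695 in the VTA and 5 in the PFC. DESeq2 called 1 of the 10 genes in the VTA at 28 days, Prlr, and none in the other 5 tables.

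**Figure D2:**
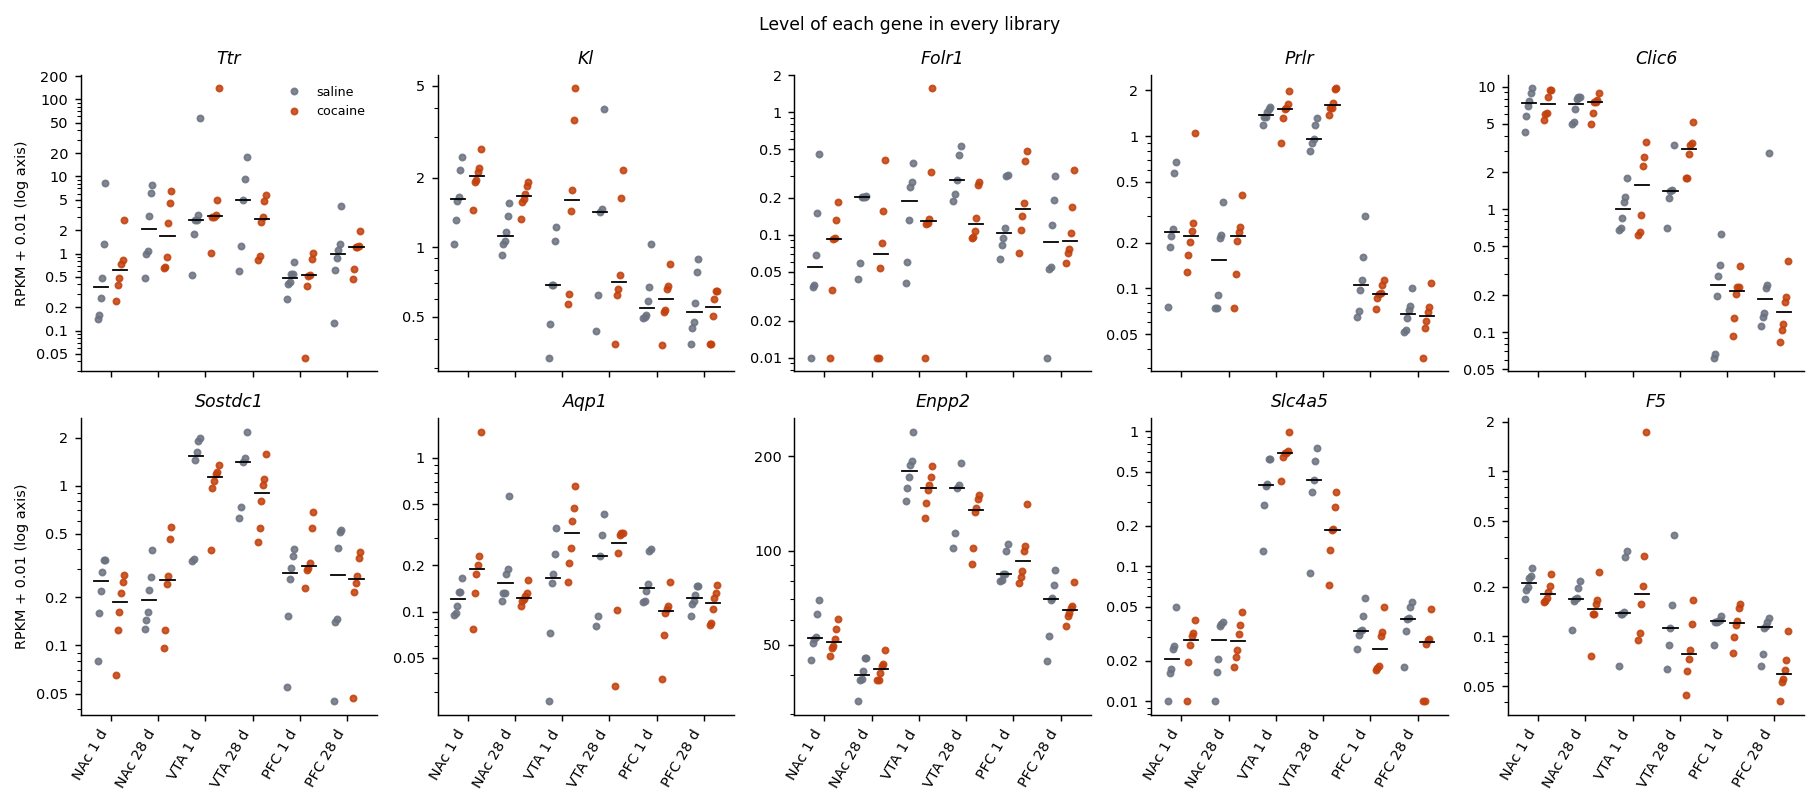
Level of each of the 10 genes in every library, as RPKM plus 0.01 on a log axis, by table (NAc, VTA and PFC at 1 and 28 days). Each point is 1 library, grey for saline and orange for cocaine, and the black line is the group median. The groups overlap in nearly every panel, single libraries reach far above the rest for Ttr, and Prlr in the VTA at 28 days is the 1 case passing the filter in which all cocaine libraries lie above all saline libraries.

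At a looser mark, an unadjusted p under 0.05, the genes past it were 0 of 6 that passed the filter on low values in the NAc at 1 day, where 4.01% of all genes were past it, and 1 of 8 at 28 days (Kl), against 6.76%. In the VTA they were 2 of 7 at 1 day (Kl and Slc4a5), against 15.7%, and 4 of 10 at 28 days (Prlr and Clic6 higher, Folr1 and Slc4a5 lower), against 11.5%. In the PFC they were 0 of 3 at 1 day, against 3.78%, and 2 of 8 at 28 days (Clic6 and F5), against 5.66%. Groups without overlap occurred once among the 10, for Prlr in the VTA at 28 days, where 1.32% of all genes did not overlap. In the other tables that share was 0.283% in the NAc at 1 day, 0.227% at 28 days, 1.67% in the VTA at 1 day, 0.159% in the PFC at 1 day and 0.214% at 28 days. Since the genes were chosen with these contrasts known, these counts carry no weight of their own.

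**Figure D3:**
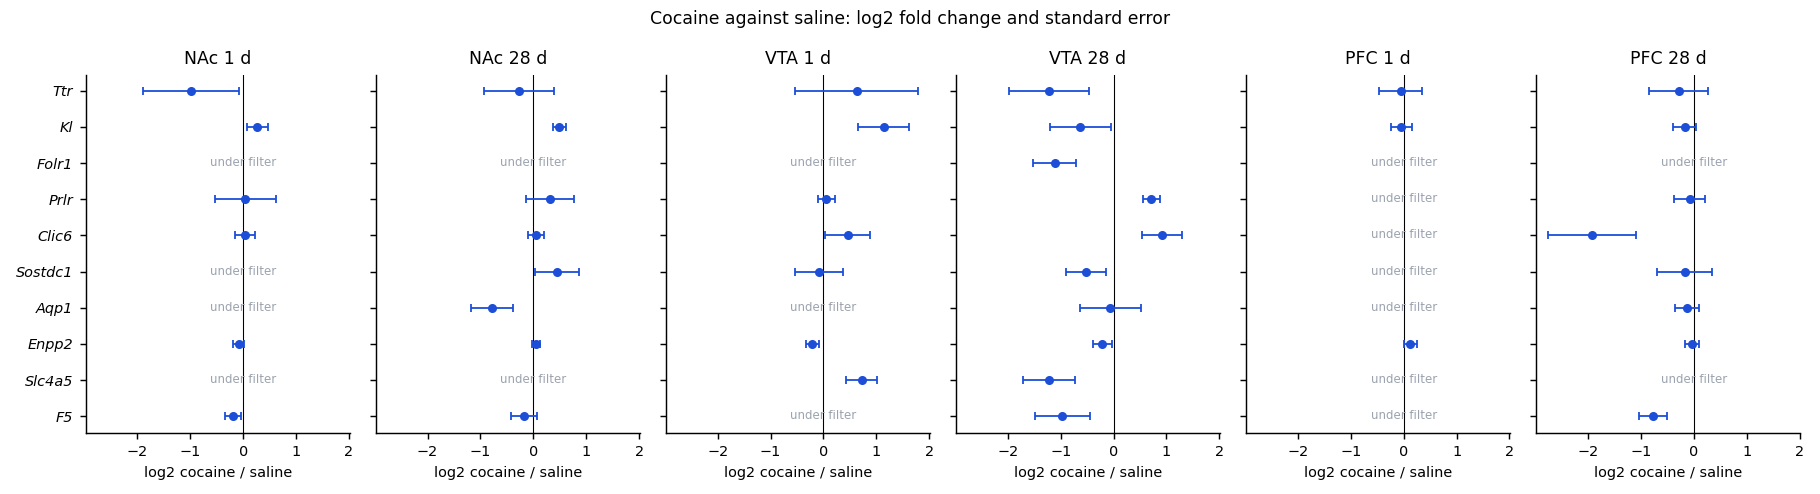
Log2 fold change of cocaine over saline (horizontal axis) with its standard error for each of the 10 genes, 1 panel per table, from 6 libraries a group (5 for saline VTA at 28 days). Genes that did not pass the filter on low values are marked as under filter. In the VTA 5 of 7 points lie to the right at 1 day and 8 of 10 to the left at 28 days, Prlr and Clic6 being those to the right.

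Prlr in the VTA at 28 days had groups that did not overlap. Its level was 0.948, 1.30, 1.18, 0.790 and 0.898 RPKM in the saline libraries, from 302 to 524 reads, and 1.37 to 2.06 RPKM with a median of 1.58 in the cocaine libraries, from 504 to 749 reads. The lowest cocaine library was above the highest saline library, and the log2 fold change was 0.72 (SE 0.15). Leaving out any 1 library gave 0.64 to 0.82. At 1 day in the same region Prlr did not show this: saline libraries ran from 1.18 to 1.55 RPKM with a median of 1.37, and cocaine libraries from 0.896 to 1.96 RPKM with a median of 1.51, so the cocaine range enclosed the saline range (log2 fold change 0.05, SE 0.16). Prlr overlapped in the NAc at both times and in the PFC at both times, with log2 fold changes of 0.04 (SE 0.57) and 0.32 (SE 0.45) in the NAc and -0.08 (SE 0.29) in the PFC at 28 days.

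Clic6 in the VTA at 28 days had the same sign as Prlr, at 3.31, 1.41, 1.43, 1.24 and 0.701 RPKM in saline libraries and at 1.80 to 5.19 RPKM with a median of 3.07 in cocaine libraries. Saline replicate 1, which also had the high hypothalamic sum, lay within the cocaine range, and the log2 fold change was 0.91 (SE 0.38), or 1.36 without that library. Without cocaine replicate 2, which had the highest Clic6 and, at 223 RPKM, the highest hypothalamic sum of the cocaine libraries, it was 0.71. The median hypothalamic sum was 27.1 RPKM in cocaine and 8.28 RPKM in saline libraries, and its part in the Clic6 values was not tested. At 1 day the VTA values overlapped widely, at 0.673 to 1.78 against 0.606 to 3.56 RPKM (log2 fold change 0.46, SE 0.42). In the NAc, where Clic6 is most abundant, saline and cocaine medians were 7.32 and 7.16 RPKM at 1 day and 7.26 and 7.47 RPKM at 28 days, and the log2 fold changes were 0.03 (SE 0.19) and 0.05 (SE 0.15). In the PFC at 28 days the log2 fold change was -1.93 (SE 0.83), and without saline replicate 4 it was -0.0029.

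Ttr varied widely between libraries, and its sign in several tables hung on single libraries. In the VTA at 1 day saline libraries ran from 0.518 to 58.0 RPKM with a median of 2.70, and cocaine libraries from 0.998 to 140 RPKM with a median of 3.05. The groups overlapped, the log2 fold change was 0.63 (SE 1.16), and it was -0.32 without cocaine replicate 6 and 1.44 without saline replicate 6. At 28 days saline VTA libraries were at 1.25, 0.588, 9.14, 18.0 and 4.92 RPKM and cocaine libraries at 0.811 to 5.68 RPKM with a median of 2.76, for a log2 fold change of -1.21 (SE 0.75), or -0.44 without saline replicate 4. In the NAc at 1 day Ttr ran from 0.133 to 8.11 RPKM in saline and from 0.233 to 2.73 RPKM in cocaine libraries, and the log2 fold change of -0.99 (SE 0.91) became 0.91 without saline replicate 1. The remaining log2 fold changes of Ttr were -0.27 (SE 0.66) in the NAc at 28 days, -0.05 (SE 0.41) in the PFC at 1 day and -0.28 (SE 0.56) in the PFC at 28 days. The last value was 0.49 without saline replicate 4, and the medians there, 0.984 RPKM in saline and 1.21 RPKM in cocaine libraries, also ran the other way.

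Kl, the klotho gene, was measured from at least 39 reads in every library. In the NAc at 28 days it ran from 0.917 to 1.54 RPKM with a median of 1.11 in saline mice and from 1.32 to 1.91 RPKM with a median of 1.65 in cocaine mice. Those groups overlapped at the edge, and the log2 fold change was 0.49 (SE 0.13), with 0.43 to 0.59 when any 1 library was left out. At 1 day in the NAc it was 0.27 (SE 0.19), from medians of 1.61 and 2.03 RPKM. In the VTA its sign was opposite at the earlier and the later time: at 1 day saline libraries ran from 0.323 to 1.21 RPKM with a median of 0.679 and cocaine libraries from 0.560 to 4.88 RPKM with a median of 1.59 (log2 fold change 1.14, SE 0.49), while at 28 days saline libraries were at 0.426, 0.612, 1.45, 3.96 and 1.41 RPKM and cocaine libraries at 0.372 to 2.16 RPKM with a median of 0.699 (log2 fold change -0.63, SE 0.58). Without saline replicate 4 the second value was 0.07. The difference between the times was not tested. In the PFC the log2 fold changes of Kl were -0.05 (SE 0.20) and -0.17 (SE 0.22).

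Slc4a5 had the same opposite signs in the VTA. At 1 day it ran from 0.119 to 0.611 RPKM with a median of 0.390 in saline and from 0.415 to 0.979 RPKM with a median of 0.678 in cocaine libraries (log2 fold change 0.72, SE 0.29). At 28 days saline libraries were at 0.0786, 0.342, 0.592, 0.744 and 0.427 RPKM and cocaine libraries at 0.0630 to 0.343 RPKM with a median of 0.177 (log2 fold change -1.22, SE 0.49). Both pairs of groups overlapped. It was under the filter in the NAc and the PFC.

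Folr1 and F5 were low genes whose medians in the VTA at 28 days were lower in cocaine than in saline libraries. Folr1 was at 0.179, 0.207, 0.272, 0.520 and 0.435 RPKM in saline libraries, from 8 to 30 reads, and at 0.0835 to 0.261 RPKM with a median of 0.113 in cocaine libraries, from 4 to 14 reads (log2 fold change -1.12, SE 0.40). F5 was at 0.0793, 0.0531, 0.102, 0.404 and 0.144 RPKM in saline and at 0.0343 to 0.156 RPKM with a median of 0.0678 in cocaine libraries (log2 fold change -0.97, SE 0.52), which was -0.24 without saline replicate 4. Both overlapped. In the PFC at 28 days F5 ran from 0.0559 to 0.119 RPKM with a median of 0.104 in saline and from 0.0304 to 0.0972 RPKM with a median of 0.0491 in cocaine libraries, from 7 to 33 reads over both groups (log2 fold change -0.77, SE 0.27). In the NAc the log2 fold changes of F5 were -0.20 (SE 0.16) and -0.18 (SE 0.24).

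Enpp2 had the smallest standard error of the genes tested in each table other than VTA at 28 days, where Prlr had it. Its log2 fold changes were -0.09 (SE 0.10) and 0.06 (SE 0.08) in the NAc, -0.21 (SE 0.12) and -0.22 (SE 0.18) in the VTA, and 0.12 (SE 0.12) and -0.03 (SE 0.14) in the PFC, at 1 and 28 days. Sostdc1 had log2 fold changes of 0.45 (SE 0.42) in the NAc at 28 days, -0.09 (SE 0.45) and -0.52 (SE 0.38) in the VTA, and -0.17 (SE 0.52) in the PFC at 28 days. Aqp1, the water channel gene, had -0.78 (SE 0.41) in the NAc at 28 days, which was -0.20 without saline replicate 1, and -0.06 (SE 0.57) and -0.13 (SE 0.23) in the VTA and the PFC at 28 days, of which the VTA value was 0.32 without saline replicate 4. All of these groups overlapped.

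The genes and tables under the filter have levels only, and their groups overlapped throughout. Median levels of Folr1 in saline and cocaine libraries were 0.0442 and 0.0829 RPKM in the NAc at 1 day, 0.193 and 0.0602 RPKM at 28 days, 0.179 and 0.119 RPKM in the VTA at 1 day, 0.0941 and 0.152 RPKM in the PFC at 1 day and 0.0776 and 0.0797 RPKM at 28 days. Those of Aqp1 at 1 day were 0.112 and 0.179 RPKM in the NAc, 0.155 and 0.313 RPKM in the VTA and 0.133 and 0.0905 RPKM in the PFC. The direction of the medians thus differed between tables for both genes. At 1 day Sostdc1 medians were 0.243 and 0.177 RPKM in the NAc and 0.273 and 0.306 RPKM in the PFC, and those of F5 were 0.129 and 0.170 RPKM in the VTA and 0.114 and 0.111 RPKM in the PFC. Slc4a5 medians were no higher than 0.0308 RPKM in the NAc and the PFC. In the PFC at 1 day the medians were 0.0953 and 0.0820 RPKM for Prlr and 0.233 and 0.209 RPKM for Clic6.

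As a set, the genes that passed the filter had median log2 fold changes of -0.03 in the NAc at 1 day, 0.05 at 28 days, 0.46 in the VTA at 1 day, -0.58 at 28 days, -0.05 in the PFC at 1 day and -0.17 at 28 days, while the medians of all genes lay between -0.03 and 0.03. The VTA medians rested on libraries that stood apart: the value at 1 day was 0.077 without cocaine replicate 6, and the value at 28 days was -0.26 without saline replicate 4. The summed level of the 10 genes is mostly Enpp2, with log2 differences of -0.09 in the VTA at 1 day and -0.21 at 28 days. Without Enpp2 the VTA difference at 1 day was 0.58, with a pooled SD of 1.53.

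Some of the genes moved together from library to library in the VTA, within treatment groups, though not all the same pairs at both times. With group means subtracted from log2 levels, Kl and F5 correlated at r = 0.94 (Spearman rho 0.91) over the 11 VTA libraries at 28 days, Ttr and Kl at 0.78 (rho 0.85), Kl and Slc4a5 at 0.73 (rho 0.85) and Ttr and F5 at 0.71 (rho 0.72). At 1 day, over 12 libraries, Ttr and F5 correlated at 0.87 (rho 0.87), Kl and F5 at 0.77 (rho 0.69) and Folr1 and F5 at 0.74 (rho 0.73). Slc4a5 did not move with these genes at 1 day, at -0.18 with Ttr, -0.04 with Kl and -0.10 with F5, and Kl and Folr1 were at 0.25. At 1 day Slc4a5 was instead at 0.72 with Sostdc1 (rho 0.86). Prlr stood apart at 28 days, at -0.42 with Ttr (rho -0.38), -0.14 with Kl (rho -0.16) and -0.31 with F5 (rho -0.30). Clic6 was at -0.82 with Enpp2 (rho -0.81). These values are descriptions over the libraries of 1 table, and those of Folr1 and F5 rest on low counts.

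Over all 71 libraries the covariation was weak, with a median r of 0.18 over the 45 pairs of genes. Kl and F5 had the highest value at 0.65, followed by Ttr and F5 at 0.56, Ttr and Folr1 at 0.51 and Ttr and Kl at 0.44, and Clic6 and Enpp2 the lowest at -0.06. Within tables the median over the 45 pairs was 0.33 in the VTA at 1 day, 0.15 in the VTA at 28 days, 0.12 and 0.03 in the NAc and 0.17 and 0.28 in the PFC.

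Several of these genes followed the meningeal and perivascular fibroblast list, which holds collagens, Dcn, Lum and organic ion transporters. At 28 days in the VTA, r with the mean log2 level of that list was 0.95 for Kl, 0.88 for F5, 0.81 for Slc4a5, 0.76 for Folr1 and 0.74 for Ttr, and it was 0.92, 0.89, 0.68, 0.64 and 0.59 without the 2 libraries farthest from the median of the list. For Prlr it was -0.24 and for Clic6 -0.49. At 1 day it was 0.93 for Kl, 0.76 for F5, 0.59 for Ttr, 0.32 for Folr1 and 0.13 for Slc4a5, of which Ttr fell to 0.19 without the 2 farthest libraries. With the list of 26 further choroid plexus genes, Kl correlated at 0.90 at 28 days and 0.85 at 1 day, and Prlr at -0.28 and -0.14. Cocaine replicate 6 at 1 day and saline replicate 4 at 28 days had the highest sum of both lists in their tables.

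**Figure D4:**
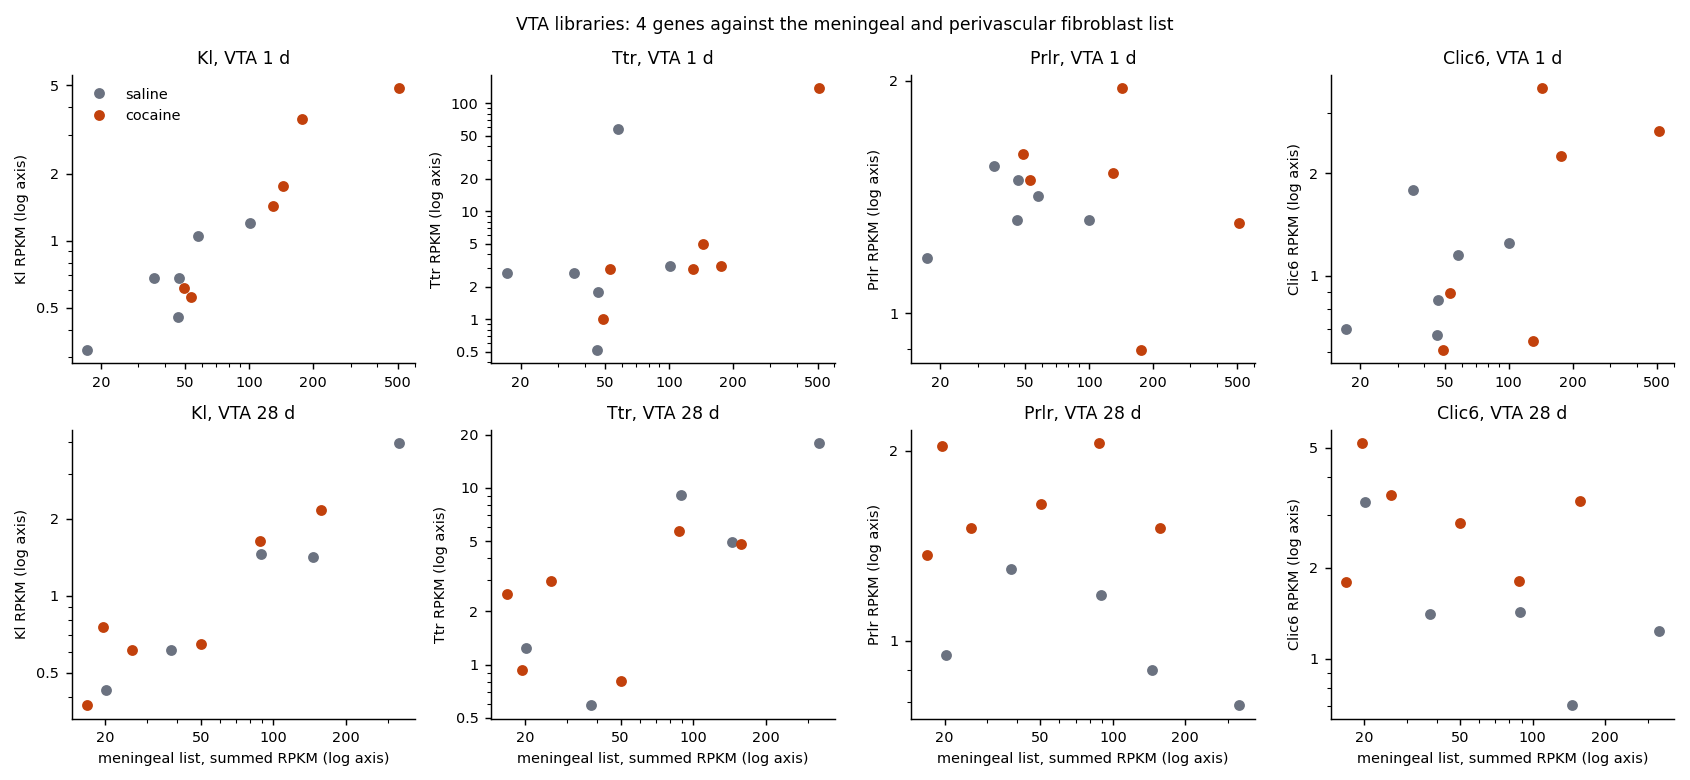
Level of Kl, Ttr, Prlr and Clic6 (vertical axes, RPKM) against the summed level of 12 meningeal and perivascular fibroblast genes (horizontal axes, RPKM) in VTA libraries, with the earlier time in the upper row, all on log axes, with 1 point per library, grey for saline and orange for cocaine. Kl climbs with the sum in both rows, while the cocaine libraries lie above the saline libraries for Prlr at 28 days, over sums of up to 157 RPKM in cocaine and 334 RPKM in saline libraries.

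The median fold change of that list in the VTA had the same sign as those of Kl, Ttr and Slc4a5 at each time, with groups whose sums overlapped. Its sum at 1 day was 17.2 to 100.5 RPKM with a median of 46.2 in saline and 49.0 to 509 RPKM with a median of 137 in cocaine libraries, and 12 of 12 of its genes had a positive log2 fold change with a median of 1.48. At 28 days it was 20.2 to 334 RPKM with a median of 88.9 in saline and 16.9 to 157 RPKM with a median of 38.0 in cocaine libraries, and 12 of 12 were negative with a median of -1.11. The further choroid plexus genes had 13 of 17 tested genes positive at 1 day (median 0.30) and 12 of 21 negative at 28 days (median -0.17). No gene of either list was called at an adjusted p of 0.05 by limma at 1 day or edgeR at 28 days. At an unadjusted p under 0.05 there were 10 of 12 meningeal and 4 of 17 further choroid plexus genes at 1 day, against 15.7% of all genes. At 28 days there were 0 of 12 and 2 of 21, against 11.5%. DESeq2 called 2 of 12 and 3 of 21 at 1 day, on recovered reads, where it called 695 of 16132 genes. At 28 days it called 0 of 12 and 0 of 21. In punched tissue, fewer cells of a type and less RNA per cell cannot be told apart.

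With the mean level of the meningeal list as a covariate, the Kl log2 fold change in the VTA went from 1.14 to -0.04 at 1 day and from -0.63 to 0.18 at 28 days, and that of Ttr from 0.63 to -1.28 and from -1.21 to -0.13. Prlr in the VTA at 28 days was at 0.68 (SE 0.16) with the meningeal list, 0.68 (SE 0.15) with the further choroid plexus genes and 0.73 (SE 0.18) with the oligodendrocyte list as a covariate. Prlr did not follow the meningeal or the further choroid plexus genes in those libraries, as given above. Covariates it does not follow could change its value little, so its values here decide nothing. The meningeal covariate was added after the values had been seen. All these fits use the contrast already known when the genes were chosen, so they are descriptions, and a cause was not tested. The hypothalamic and pituitary lists were not used as covariates. Their median sums in the VTA at 28 days were 8.28 and 8.75 RPKM in saline and 27.1 and 1.51 RPKM in cocaine libraries.

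Read against the other 9 genes in the same library, Prlr in the VTA at 28 days was higher by a log2 value of 0.41 to 2.45 with a median of 1.39 in saline mice and by 1.96 to 3.45 with a median of 2.77 in cocaine mice. These ranges overlapped, and the means differed by 1.15 with a pooled SD of 0.67. Against the 26 further choroid plexus genes in place of the 9, the difference was 0.99 with a pooled SD of 0.62. Prlr was not alone in this. The Clic6 difference was larger, at 1.46 (pooled SD 1.15) and 1.26 (pooled SD 0.99). Folr1, from low counts, differed by -0.84 (pooled SD 0.36) against the further genes, with all cocaine libraries below all saline libraries. The corresponding differences of Prlr against the 9 genes were -0.13 and 0.50 in the NAc, -0.50 in the VTA at 1 day, and -0.28 and 0.16 in the PFC, each smaller than its pooled SD.

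Enpp2 followed the oligodendrocyte list. Its r with that list was 0.97 in the VTA at 28 days (rho 0.85) and 0.89 at 1 day, 0.86 and 0.56 in the NAc, and 0.85 and 0.86 in the PFC. In the VTA at 1 day Enpp2 was also at 0.64 with Ttr (rho 0.62), 0.63 with F5, 0.58 with Folr1 and 0.54 with Kl, while at 28 days these were 0.15, -0.12, 0.14 and 0.11. In the VTA at 28 days the oligodendrocyte sum was 3913 to 7741 RPKM with a median of 5719 in saline and 2760 to 5010 RPKM with a median of 4504 in cocaine libraries, with 10 of 10 genes negative and a median log2 fold change of -0.39. Enpp2 had -0.22 there, and with this list as a covariate the Clic6 value fell from 0.91 to 0.43. Clic6 followed striatal genes within the NAc, at r = 0.61 and 0.66, and ran against cortical genes, at -0.75 and -0.85. In the PFC at 28 days Clic6 was at 0.86 with the striatal list (rho 0.42), and that r was 0.49 without the 2 farthest libraries.

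The ependymal list of 12 genes correlated with Kl in the NAc at 1 day, at r = 0.89 (rho 0.86), but not at 28 days, at -0.03, although 10 of 10 tested ependymal genes were positive at 28 days with a median of 0.33. All 8 endothelial genes were positive in the VTA at 1 day (median 0.37) and negative at 28 days (median -0.43). The dopamine neuron list had 7 of 7 tested genes negative in the VTA at 1 day (median -0.56) and 7 of 8 positive at 28 days (median 0.18). Prlr correlated with it at 0.69 at 1 day, or 0.18 without the 2 farthest libraries, and at 0.15 at 28 days. Pituitary hormone genes reached a sum of 51.0 RPKM in saline VTA replicate 4 and 48.9 RPKM in replicate 5 at 28 days, against 7.42 RPKM in the highest cocaine library. Of these 6 genes, 2 passed the filter there, and Cga, Tshb and Lhb had medians under 0.1 RPKM in both groups. The part of each of these lists in the values of the 10 genes was not tested beyond the covariates above.

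The prolactin pathway was read from 8 genes, namely the ligand gene Prl and the downstream or feedback genes Jak2, Stat5a, Stat5b, Cish, Socs1, Socs2 and Socs3. In the VTA at 28 days all 8 were tested and none was called at an adjusted p of 0.05 by edgeR or by DESeq2, while 1 was higher and 3 were lower at an unadjusted p under 0.05, a mark that 11.5% of all genes passed. Stat5b, a transcription factor of the pathway, had a log2 fold change of 0.20 (SE 0.07). Cish and Socs2, feedback inhibitors that STAT5 induces, had -0.46 (SE 0.18) and -0.42 (SE 0.18), and Jak2, the receptor's kinase, had -0.08 (SE 0.08). The hormone gene itself, Prl, was at 0 to 12.1 RPKM with a median of 1.66 in saline libraries and at 0.0290 to 1.07 RPKM with a median of 0.233 in cocaine libraries (log2 fold change -3.43, SE 1.21), and it belongs to the pituitary list that was high in those saline libraries. In the VTA at 1 day 6 of the 8 were tested, and 1 was past the unadjusted mark, against 15.7% of all genes. That gene was Cish at 0.54 (SE 0.21). The list had 6 tested genes in the NAc at 1 day, with Jak2 past the mark at 0.21, against 4.01% of all genes. At 28 days it had 7 there, with Socs2 past the mark at -0.31, against 6.76%. In the PFC 5 and 7 were tested and none was past it, against 3.78% and 5.66%.

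The 10 genes outside the set whose levels were most like the mean of the 10, over 71 libraries and 13814 candidates, were Rnf43 (r = 0.76), Gsn (0.74), Cd82 (0.73), Apod (0.72), Lbp (0.71), Icosl (0.70), Clic4 (0.70), Tm4sf1 (0.70), Elf1 (0.70) and Parp4 (0.70). Lbp belongs to the list of further choroid plexus genes, Gsn encodes gelsolin, an actin-severing protein, and Apod encodes apolipoprotein D. Their likeness varied between tables: for Elf1 r was 0.95 and 0.90 in the VTA tables and -0.07 and 0.12 in the NAc tables, while for Rnf43 it was 0.89 and 0.76 in the VTA tables and 0.76 and 0.29 in the NAc tables. Among the 10 themselves, Ttr was closest to the mean they form (r = 0.70), followed by F5 (0.68), Folr1 (0.63) and Kl (0.63), and Prlr (0.44), Aqp1 (0.41) and Clic6 (0.40) were farthest from it. Each of the 10 is part of that mean.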

How the data were processed

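Total RNA of micro-punches was sequenced. Per the labels and the submitters' processing notes, reads were aligned to mm9 with STAR 2.4.1d, and DESeq2 and edgeR were also named; the counter is not given in the sources used here. The deposited tables hold raw counts per gene for NAc at both times and for VTA and PFC at 28 days, and RPKM made by the authors for VTA and PFC at 1 day. Whole reads were recovered for 100% of their genes with reads (23806 and 23353), on which edgeR called 55 and 1 genes. Gene lengths were used to turn the count tables into RPKM, with library sizes scaled by TMM within each table. The RPKM made by the authors were kept without TMM scaling, so levels in different tables are not on exactly the same scale. Depth was 20971967 to 49700932 reads per library. Samples were grouped by their labels, and 30 columns that match no sample were not used. Comparison columns of the authors were not used. Replicates are separate libraries, and p-values measure only the spread between them.

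Counts were tested with edgeR 4.0.16 (TMM, filterByExpr with a minimum count of 10, quasi-likelihood), RPKM with limma 3.58.1 on log2(RPKM + 0.1) keeping genes whose mean reached 0.5 RPKM, which understates changes of low genes. P-values were Benjamini-Hochberg adjusted over all genes of a comparison. Alternatives were DESeq2 1.42.0, other size factors, filters and pseudocounts, recovered reads, list covariates and leaving out each library. Log2 levels for correlations added 0.5 reads. The fits were tested on simulated data. The 10 genes and all lists were chosen with earlier results of these data known. The text names all 10 genes in every group, the 3 highest genes of the further choroid plexus list and the 10 genes most like the mean; other names were chosen after their values were seen. Replicate numbers at 28 days are those of the table columns.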

Additional observations from a re-analysis of the deposited data

Results flagged for a closer look

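For each of the 10 genes, the highest and the lowest library of each group was compared with the rest of its group on log2 levels. Of 120 gene and group combinations, 9 held a library whose gap to its nearest neighbour was large for the group's range on that scale (Dixon's criterion). Chance alone gives about 1 in 20 such groups. Ttr in cocaine VTA replicate 6 at 1 day was 140 RPKM, against 0.998 to 4.96 RPKM in the other 5. Ttr in cocaine PFC replicate 2 at 1 day was 0.0347 RPKM, from 1 read, against 0.371 to 1.00 RPKM. Prlr in cocaine NAc replicate 5 at 1 day was 1.04 RPKM, from 246 reads, against 0.119 to 0.257 RPKM. Clic6 in saline PFC replicate 4 at 28 days was 2.89 RPKM, against 0.103 to 0.232 RPKM. Sostdc1 was low in cocaine VTA replicate 1 at 1 day, at 0.386 RPKM against 0.964 to 1.34 RPKM, and in cocaine PFC replicate 5 at 28 days, at 0.0369 RPKM against 0.206 to 0.376 RPKM. Aqp1 in saline NAc replicate 1 at 28 days was 0.559 RPKM, against 0.107 to 0.180 RPKM. Slc4a5 in saline PFC replicate 2 at 28 days was 0.00788 RPKM, against 0.0231 to 0.0439 RPKM. F5 in saline PFC replicate 4 at 1 day was 0.0791 RPKM, against 0.113 to 0.122 RPKM.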

How the results depend on the processing

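The number of the 10 genes past an unadjusted p of 0.05 for cocaine against saline moved with these choices. It went from 0 to 1 in the NAc at 1 day and in the PFC at 1 day without a filter on low values (the PFC value also with edgeR on recovered reads), from 1 to 2 in the NAc at 28 days with the oligodendrocyte or the further choroid plexus genes as a covariate (with or without Otx2, Lmx1a and Ace), from 2 to 4 in the VTA at 1 day with DESeq2 on recovered reads and to 1 with the meningeal covariate, from 4 to 2 in the VTA at 28 days with the oligodendrocyte covariate, and from 2 to 1 in the PFC at 28 days with DESeq2 or with any of the meningeal, oligodendrocyte and choroid plexus covariates. At an adjusted p of 0.05 it went from 0 to 1 in the VTA at 1 day with the oligodendrocyte covariate (Kl, log2 fold change 1.79) and at 28 days with DESeq2 (Prlr). For the unadjusted mark in the VTA at 1 day, DESeq2 tested 9 of the 10 genes, against 7 by limma. Over all genes 2860 of 16132 were past it with DESeq2, against 2366 of 15042. Shares over all genes are not given for the other settings, so these counts carry no weight of their own. The median log2 fold change in the VTA at 1 day went from 0.46 to 0.86 with edgeR on unfiltered recovered reads, -0.22 with the meningeal covariate, 0.015 with the further choroid plexus genes and 0.030 with these less Otx2, Lmx1a and Ace. The summed level there went from -0.09 to 0.58 without Enpp2. With cocaine mice the genes called between PFC and NAc went from 3 to 5, and Kl for VTA minus NAc from 0.33 to -0.77. That Kl value was also negative in saline mice without saline VTA replicate 4, at -0.36. The cause was not tested for any of these. The meningeal covariate, the reduced choroid plexus covariate, the tests on recovered reads, limma without its trend and the sum without Enpp2 were added after the data had been seen.

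Leaving out 1 library at a time gave medians of -0.14 to 0.26 and -0.01 to 0.13 in the NAc, 0.077 to 0.66 and -0.78 to -0.26 in the VTA, and -0.10 to 0.18 and -0.30 to -0.07 in the PFC, at 1 and 28 days. Genes past the unadjusted mark then numbered 0 to 2, 1 to 2, 0 to 2, 1 to 5, 0 to 0 and 1 to 2 in the same order, 0 to 0 were called at an adjusted p in each table, and 5 to 6, 3 to 5 and 4 to 7 were called for VTA minus NAc, PFC minus NAc and VTA minus PFC. The shares over all genes are not given for these fits, so the counts carry no weight of their own.

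Correlations of same-numbered libraries at 1 day ran from -0.45 to 0.59 in the NAc (2 of 6 libraries closest to their own number), -0.26 to 0.44 in the VTA (2 of 6) and -0.16 to 0.06 in the PFC (0 of 6). Number 6 was closest to its own number in both the NAc (0.59) and the VTA (0.44). Whether the numbers pair the samples cannot be told from these values. With the replicate block the medians were -0.07, 0.46 and -0.05 and the genes past the unadjusted mark 0, 2 and 0. At 28 days no paired analysis was possible because the columns carry no number of the labels. Low counts limit the precision of Folr1, Slc4a5, Aqp1 and Sostdc1, which had under 10 reads in 53, 48, 31 and 15 libraries.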
